A study of Mus musculus with 2 samples.

Results

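Cytosolic ribosomal protein (RP) genes encode the protein part of the ribosomes that translate nuclear messages. They were taken by name from the gene rows of the count tables: Rpsa, Rplp0, Rplp1, Rplp2 and every symbol in which Rpl or Rps is followed by a digit, without pseudogene names holding -ps, Rps6k kinase genes and names holding Gm. This gave 86 genes of 26078. One of them, Rps19bp1, is a regulator that binds an RP and is not a ribosomal subunit. The Ter119 group was 1 C57BL/6J mouse aged 7 to 10 weeks that received 35 ug of the red cell antibody Ter119 under the skin and then 10 daily injections of 10 ug. The saline group was 1 mouse of the same strain and age range that received saline of similar volume. Livers were digested 24 after the last injection, a time given without a unit, and non-parenchymal cells were enriched for macrophages with beads against F4/80 and CD11b before droplet-based 3′ single-cell sequencing with unique molecular identifiers (UMIs). Cells were stained with hashtag antibodies and pooled before capture. The gate with the most cells in both libraries is that of Kupffer cells, macrophages that live in the liver sinusoids and take up aged red cells.

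Ribosomes are made of a small subunit, which reads the message, and a large subunit, which joins amino acids, and each cytosolic ribosome carries a single copy of most of these proteins. RP messages are among the most abundant in a cell. In mammals they typically begin with a C followed by a tract of C and T, the 5′ terminal oligopyrimidine (TOP) sequence, through which mTOR signalling and the RNA-binding protein Larp1 control their translation and stability. Some members have paralogs of restricted expression, known from testis, striated muscle and developing lymphocytes, and several members act outside the ribosome.

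The annotated starts of 11 RP genes are printed because members whose levels are described here differ in the run of C and T found there. Each line gives 12 bases before the RefSeq transcription start (GRCm38.p6) and 18 bases from the start on, and capitals mark the longest run of C and T in that stretch.
Rps2, chr17:24720051-24720080, plus strand: cagtcgagatctcgcgCTTCTTggagcact
Rpl13a, chr7:45128728-45128757, minus strand: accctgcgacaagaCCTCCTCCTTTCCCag
Rpl22l1, chr3:28805496-28805525, plus strand: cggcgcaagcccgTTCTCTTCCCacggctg
Rpl12, chr2:32961700-32961729, plus strand: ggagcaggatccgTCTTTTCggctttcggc
Rpl15, chr14:18270969-18270998, minus strand: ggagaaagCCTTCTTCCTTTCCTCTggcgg
Rps18, chr17:33955648-33955677, minus strand: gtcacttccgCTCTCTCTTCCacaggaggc
Rpl41, chr10:128549151-128549180, minus strand: acgggccggCTCggaagtgacgacaccgag
Rps9, chr7:3704029-3704058, plus strand: gccttgTCTCTCTTTgtctcgggcctgagt
Rps27, chr3:90213631-90213660, minus strand: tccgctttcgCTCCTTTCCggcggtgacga
Rps27rt, chr9:114982722-114982751, minus strand: acttaTCCCTTgctttccggcggtgacgac
Rpl37a, chr1:72711248-72711277, plus strand: cgCTCgccggtctaaaaccgcgcatgcgca
The longest run was 17 bases in Rpl15 and 14 in Rpl13a, but 3 in Rpl41 and Rpl37a. These lengths depend on the start that RefSeq gives, so they do not measure how far the TOP form varies. The Rpl37a stretch ends at base 72711277, before the gene's start in GENCODE vM21 (72711290). Rps27 has a run of 9 bases and its copy Rps27rt a run of 6, which ends before the start.

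RefSeq promoter windows of 300 bases (250 before and 50 from the start) matched 66 of the 86 members, with 78 windows. A C at the annotated start base with a run of at least 5 C or T was found in 17.9% of the members' windows and in 2.51% of all 32851 windows. With the run, of at least 6 bases, allowed anywhere from 20 bases before to 25 after the start, the shares were 59.0% of the members' windows and 31.9% of all. On either strand, CCGGAAG, the core of ETS family binding sites, stood in 34.6% of the members' windows and 8.86% of all. GGGCGG, the Sp1 core, stood in 60.3% and 35.7%. AAGATGG, the core bound by Yy1, stood in 15.4% and 6.34%, and CTTTTC in 23.1% and 21.8%. Of the matched members at least 1.5-fold higher in Ter119 than in saline Kupffer-gated cells, 10 of 14 had the wider C and T run, and of the other matched members 32 of 49 had it.

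Depth differed between the libraries. The Ter119 library held 25760 barcodes and the saline library 18354, and the 13846 and 11572 cells kept (at least 1000 UMIs and 500 genes, at most 15% mitochondrial UMIs) had medians of 2803 UMIs in Ter119 and 6239 in saline. Cell types were gated on summed markers per 1000 UMIs outside hemoglobin genes, with no RP gene among them. Of the 11 Kupffer markers, Cd5l (6008 CPM in Ter119, 7477 CPM in saline) and Slc40a1 (4104 CPM in Ter119, 4357 CPM in saline) were nearest to level. Marco (4857 CPM in Ter119, 854 CPM in saline) and Fcna (2882 CPM in Ter119, 1829 CPM in saline) were higher in Ter119. Vsig4 (724 CPM in Ter119, 3205 CPM in saline), Folr2 (213 CPM in Ter119, 1211 CPM in saline) and C1qa (3375 CPM in Ter119, 5716 CPM in saline) were lower, so the gate's sum rests on a different mix of markers in each mouse. The defining marker Timd4 was at 29.7 CPM in Ter119 and 581 CPM in saline, and Clec4f at 1143 CPM in Ter119 and 5342 CPM in saline, so the gate holds cells with few Timd4 messages in Ter119. CPM here is UMIs per 1e6 UMIs outside hemoglobin genes, because hemoglobin made up 8.33% of the UMIs of Kupffer-gated Ter119 cells and 0.0153% in saline. There is 1 mouse per group, so no difference between mice was tested, and every interval below is a 95% interval that covers counting error only. Mouse, treatment and library cannot be told apart. The libraries share 133 barcode sequences, and without them the ratio of the RP share in Kupffer-gated cells was 1.284 in place of 1.283.

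RP messages made up a larger share of the transcriptome in the Ter119 mouse in most gated cell types, and by very different amounts. In Kupffer-gated cells the RP share of non-hemoglobin UMIs was 12.4% in Ter119 (6873 cells) and 9.66% in saline (9485 cells), a ratio of 1.28 (1.281 to 1.285). In endothelial-gated cells it was 11.5% in Ter119 (1297 cells) and 7.90% in saline (700 cells), a ratio of 1.46. Neutrophil-gated cells had 12.8% in Ter119 (132 cells) and 5.30% in saline (239 cells), a ratio of 2.41. At a lower cutoff of 500 UMIs and 250 genes, that gate had 9.66% in Ter119 (757 cells). Saline then had 5.30% (242 cells), a ratio of 1.82. B and dendritic cells held the highest shares and had the ratios nearest to 1. B-gated cells had 25.3% in Ter119 (53 cells) and 24.2% in saline (70 cells), a ratio of 1.04. Dendritic-gated cells had 26.4% in Ter119 (27 cells) and 26.1% in saline (20 cells), a ratio of 1.01 with an interval of 0.993 to 1.03 that includes 1. Monocytes lay between: classical monocytes had 19.7% in Ter119 (594 cells) and 17.5% in saline (179 cells, ratio 1.13), and patrolling monocytes had 17.02% in Ter119 (128 cells) and 16.002% in saline (58 cells, ratio 1.06). T and NK cells had 20.3% in Ter119 (124 cells) and 17.5% in saline (24 cells), a ratio of 1.16. The types kept nearly the same order in both mice, from dendritic and B cells down to endothelial cells. The exceptions were T and NK cells and classical monocytes, which were level in saline, and neutrophils, which had the lowest share in saline and lay between Kupffer and patrolling monocyte cells in Ter119. With all UMIs, hemoglobin included, as the base, the ratio was below 1 in patrolling monocytes (0.986), dendritic cells (0.963) and B cells (0.939).

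**Figure D1:**
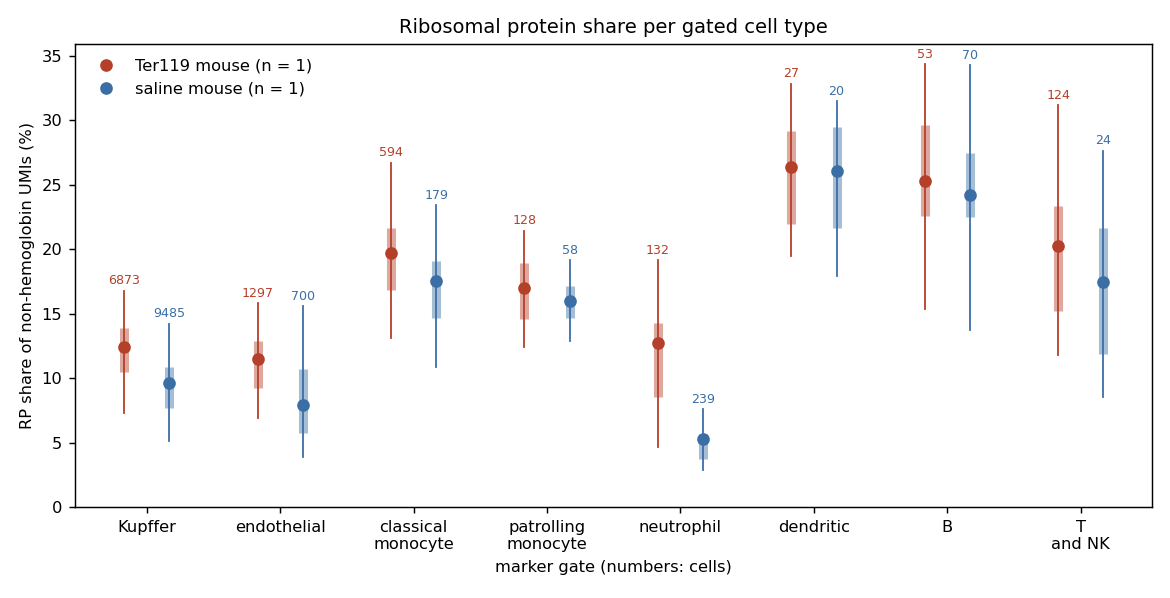
Share of non-hemoglobin UMIs from RP genes (vertical axis, percent) per marker gate, Ter119 left of saline in each pair. Points are the share summed over cells, thick bars the 25th to 75th and thin bars the 5th to 95th percentile of cells, and numbers are cells; the neutrophil pair, 12.8% in Ter119 and 5.30% in saline, is the farthest apart.

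Gated cells carried RNA of other types, in unequal amount. In neutrophil-gated cells the median of the Kupffer markers was 10.7 per 1000 UMIs in Ter119 and 6.59 in saline, and that of the neutrophil markers was 56.0 in Ter119 and 112 in saline. The neutrophil marker Mmp9 was at 474 CPM in Ter119 and 1512 CPM in saline. Kupffer markers had medians of 6.79 per 1000 in Ter119 and 4.50 in saline endothelial cells, and of 6.13 in Ter119 and 3.11 in saline B-gated cells. The part of this in the RP shares was not tested. Another 576 Ter119 cells passed a gate on secondary granule genes of immature neutrophils, and their RP share was 7.93%, below that of the neutrophil-gated Ter119 cells. The 16 Ter119 cells with erythroid markers other than hemoglobin had 22.7%, and the 677 Ter119 barcodes in which hemoglobin exceeded 50% of UMIs had 14.1% of their other UMIs from RP genes. Cells that passed no gate were 22.0% of the kept cells in Ter119 and 4.99% in saline, with RP shares of 16.9% in Ter119 and 18.9% in saline.

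Within Kupffer-gated cells the RP share varied with the mitochondrial share of a cell, and in each library cells with a larger mitochondrial share had a smaller RP share. In Ter119 it was 13.6% in cells with 0 to 3% mitochondrial UMIs and 8.29% in cells with 12 to 15%. In saline the same bins had 11.7% and 7.77%. Across cells the Pearson correlation of the 2 shares was -0.49 in Ter119 (6873 cells) and -0.32 in saline (9485 cells), as a description, since both shares come from the same UMIs. Mitochondrial UMIs made up 5.33% in Ter119 and 7.26% in saline Kupffer-gated cells. The RP share was higher in Ter119 in each mitochondrial bin. At matched depth and mitochondrial share (4000 to 8000 UMIs, 3 to 6% mitochondrial) it was 13.1% in 1395 Ter119 cells and 9.24% in 660 saline cells, and at 6 to 9% mitochondrial it was 12.3% in 812 Ter119 cells and 8.65% in 1071 saline cells. With mitochondrial UMIs taken out of the base, the ratio was 1.263 in place of 1.283.

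**Figure D2:**
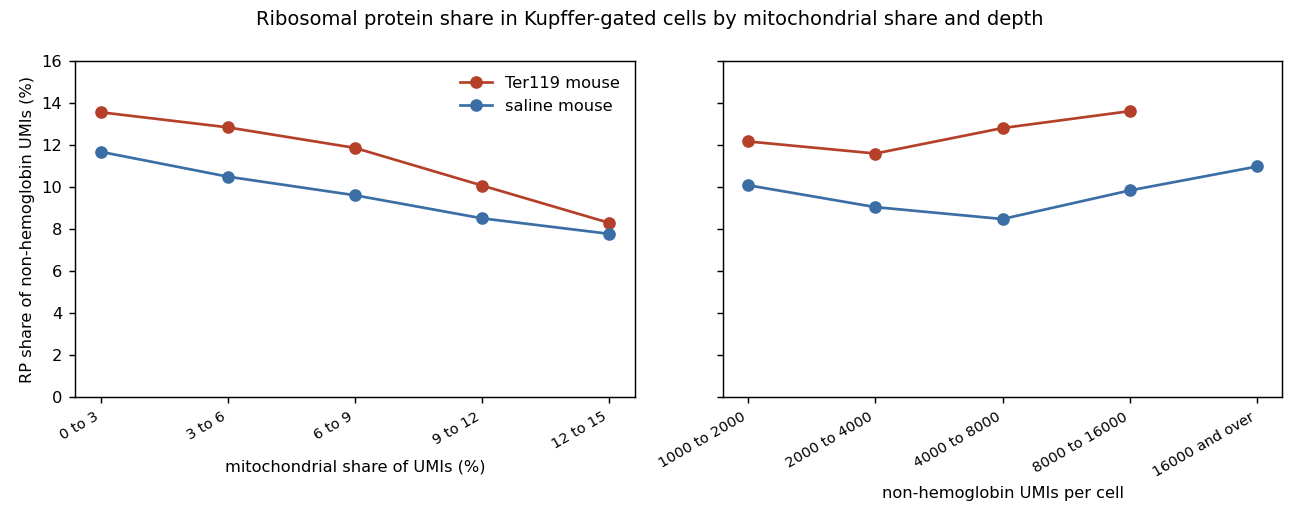
RP share of non-hemoglobin UMIs (vertical axis, percent, summed over the cells of a bin) in Kupffer-gated cells of the Ter119 and the saline mouse, by mitochondrial share (left) and by depth (right). The Ter119 line lies above the saline line in each bin that both hold, and both lines go down with the mitochondrial share, to 8.29% in Ter119 and 7.77% in saline at 12 to 15%.

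The RP share also moved with the Kupffer markers used for the gate, and inside the gate more so in Ter119. Across gated cells its Pearson correlation with the Kupffer marker share was -0.35 in Ter119 and 0.02 in saline, as a description. Among cells with 20 to 25 marker UMIs per 1000, just inside the gate, it was 13.3% in Ter119 (2127 cells) and 11.0% in saline (486 cells). Just outside it, at 15 to 20 per 1000, it was 14.3% in Ter119 (1201 cells) and 13.1% in saline (220 cells). At 30 to 40 per 1000 it was 11.7% in Ter119 (2048 cells) and 9.49% in saline (4617 cells), and at 40 and over it was 10.2% in Ter119 (488 cells) and 9.76% in saline (3253 cells). From 15 per 1000 up, the difference between mice was largest at 25 to 30 per 1000, with 12.5% in Ter119 (2210 cells) and 9.65% in saline (1129 cells), and smallest at 40 and over. With a gate at 1.5 times the marker share and 1 marker more, the ratio was 1.19. The median Kupffer marker share was 27.8 per 1000 in Ter119 and 37.0 in saline.

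Other cell states inside the Kupffer gate differed little in RP share. Cycling cells had 13.1% and the rest 12.4% in Ter119, against 10.3% and 9.63% in saline. Ter119 cells with a UMI of Gpnmb, a lysosomal glycoprotein of lipid- and debris-laden macrophages, had 12.4%, and those without had 12.3%. At a matched depth of 4000 to 8000 UMIs, the shares were 12.75% with a Gpnmb UMI and 13.04% without. Across 5 bins of hemoglobin load, from under 0.5% to over 20% of UMIs, the RP share of Ter119 cells stayed between 11.8% and 12.7%.

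The small subunit held a slightly smaller part of RP UMIs in Ter119: 44.5% in Ter119 and 46.0% in saline Kupffer-gated cells, 45.7% in Ter119 and 46.5% in saline endothelial cells, and 45.1% in Ter119 and 48.2% in saline neutrophils. Its genes did not move as one in Kupffer-gated cells. Rps29 alone held 3.17% of RP UMIs in Ter119 and 4.65% in saline, while Rps2 held 1.71% in Ter119 and 0.971% in saline.

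Single RP genes in Kupffer-gated cells were mostly higher in Ter119, with Rps2 at the top and Rps29 and Rps27 at the bottom of the abundant ones. Of the 86 members, 83 reached 20 CPM in 1 of the libraries and 80 reached 100 CPM. Of the 83, 76 had a log2 ratio of Ter119 over saline above 0 and 7 below, beside 36.3% of all genes above 0. The split depends on the scaling: 81 were above and 2 below with TMM factors, and 40 above and 43 below as a share of RP UMIs. Their median was 0.35, and that of all 6466 genes over the same minimum was -0.18. At least 1.5-fold higher in Ter119 were 16 members, against 8.78% of all genes, and at least 1.5-fold lower was 1 member, Rps27rt, against 20.4% of all genes. At least 2-fold higher was 1 member, Rps2, against 3.99% of all genes, and none was 2-fold lower, against 7.9% of all genes. With TMM factors the median of all genes moved to 0.03 and that of the members to 0.55, and 38 members were 1.5-fold and 5 were 2-fold higher, against 14.7% and 5.66% of all genes. Such factors shift all genes by 1 constant, so the members' median lay 0.52 above that of all genes with or without them. It lay 0.45 above with at most 5% mitochondrial UMIs, when 8 members were 1.5-fold higher, near the 8.43% of all genes, and 0.42 above with the stricter gate. The scaling also moved the split of all 2-fold genes: 33.6% of them were higher in Ter119 by CPM, 52.5% with TMM factors and 53.4% with median-of-ratios factors.

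**Figure D3:**
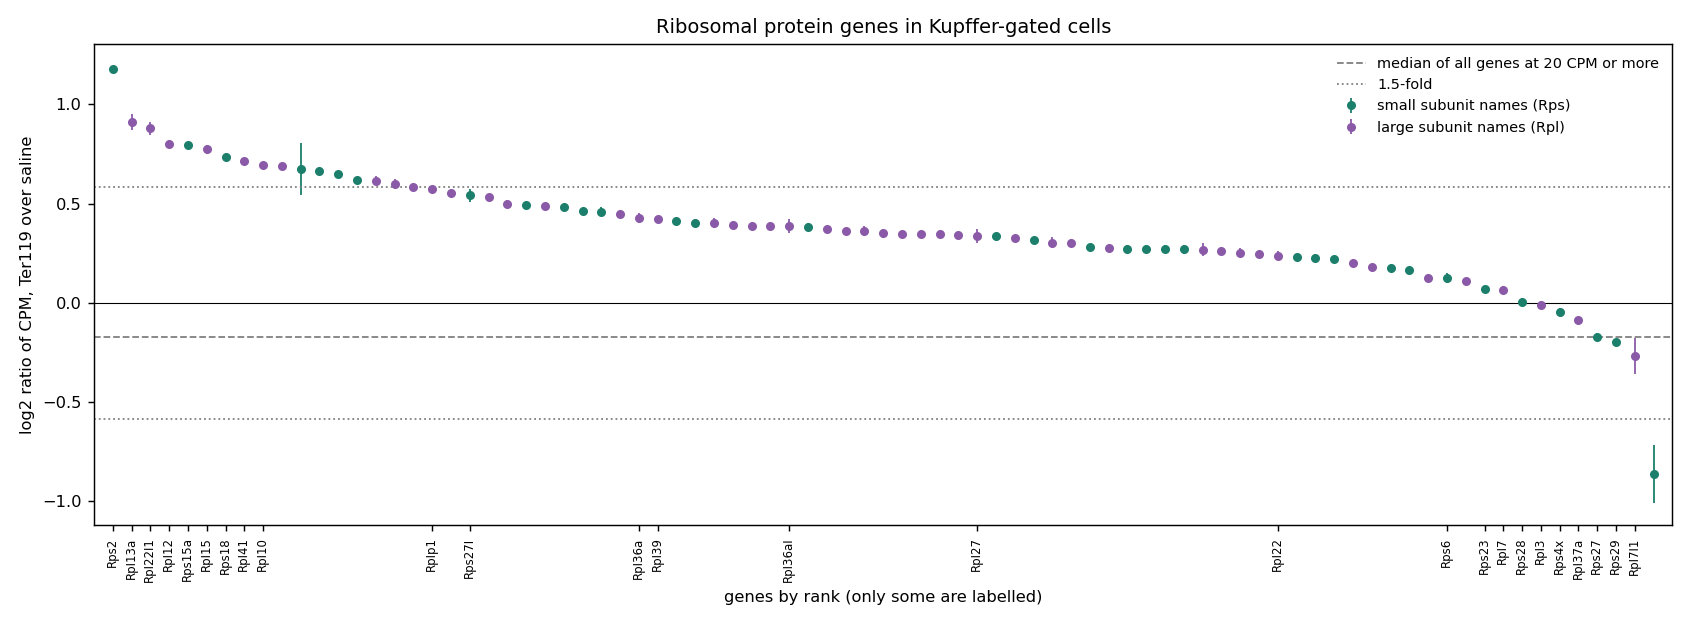
Log2 ratio of CPM, Ter119 over saline (vertical axis), for the 83 RP genes with at least 20 CPM in Kupffer-gated cells, ordered from highest to lowest and labelled in part, with 95% counting intervals. The dashed line is the median of all genes at 20 CPM or more (-0.18) and the dotted lines are 1.5-fold; Rps2 stands alone at the top (1.18) and Rps27rt, the last point on the right, at the bottom (-0.86).

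Rps2, a small subunit protein beside the channel where the message enters, had 2121 CPM in Ter119 and 938 CPM in saline, a ratio of 2.26 (2.24 to 2.29). Its share of all RP UMIs was 1.71% in Ter119 and 0.971% in saline, so it stood out against the other members and not only with them. The other small subunit genes among the 8 highest ratios were Rps15a, with 2137 CPM in Ter119 and 1230 CPM in saline (ratio 1.74), and Rps18, with 1181 CPM in Ter119 and 710 CPM in saline (ratio 1.66). Rps18 sits at the head of the small subunit, where the subunits meet.

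In the large subunit, Rpl13a had 318 CPM in Ter119 and 169 CPM in saline (ratio 1.88, interval 1.83 to 1.93). Rpl13a is known in human monocytes as part of a complex that silences the translation of inflammatory messages once it is released from the ribosome. It overlaps another annotated gene on its strand, Gm45713, so its counts are uncertain. Rpl22l1, the paralog of Rpl22, had 502 CPM in Ter119 and 273 CPM in saline (ratio 1.84, 1.80 to 1.88), while Rpl22 itself had 917 CPM in Ter119 and 778 CPM in saline (ratio 1.18). Both are RNA-binding proteins with known roles in lymphocyte development. Their coding sequences are 66.9% identical. UMIs come from 3′ ends, which were not compared, so how well reads of the pair separate was not tested.

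Rpl12 and the P proteins form the stalk that recruits elongation factors. Rpl12, at its base, had 1318 CPM in Ter119 and 756 CPM in saline (ratio 1.74). Rplp1 had 4077 CPM in Ter119 and 2744 CPM in saline (ratio 1.49), Rplp2 had 1829 CPM in Ter119 and 1424 CPM in saline (ratio 1.28), and the anchor Rplp0 had 1104 CPM in Ter119 and 869 CPM in saline (ratio 1.27). The stalk proteins, a group formed after their values were seen, thus did not share one ratio. Rpl15 had 1115 CPM in Ter119 and 653 CPM in saline (ratio 1.71). Rpl41, which encodes a very short basic peptide, had the highest level of all members in Ter119, 5393 CPM in Ter119 and 3282 CPM in saline (ratio 1.64).

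At the other end, Rps29, the most abundant member in saline, had 3924 CPM in Ter119 and 4496 CPM in saline (ratio 0.873, 0.867 to 0.879), a direction that was lost with TMM factors (log2 ratio 0.01) and median-of-ratios factors (0.03). Rps27 had 945 CPM in Ter119 and 1065 CPM in saline (ratio 0.887, 0.874 to 0.900), also reversed with TMM factors (log2 ratio 0.03). Both encode small zinc-binding proteins of the small subunit. Rpl37a had 2947 CPM in Ter119 and 3133 CPM in saline, Rps4x had 1307 CPM in Ter119 and 1349 CPM in saline, and Rpl3 had 901 CPM in Ter119 and 908 CPM in saline; their log2 ratios of -0.09, -0.04 and -0.01 turned to 0.12, 0.16 and 0.19 with TMM factors. Rps28, Rpl7 and Rps23 were near level. Rps28 had 1793 CPM in Ter119 and 1786 CPM in saline, Rpl7 had 1020 CPM in Ter119 and 977 CPM in saline, and Rps23 had 1597 CPM in Ter119 and 1523 CPM in saline. As a share of RP UMIs these 8 genes were all lower in Ter119. This follows from their choice as the lowest ratios, because that base divides each ratio by the same number. Rps29 was 3.17% in Ter119 and 4.65% in saline, Rps27 was 0.763% in Ter119 and 1.103% in saline, and Rpl37a was 2.38% in Ter119 and 3.24% in saline.

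Among members with at least 100 CPM the log2 ratio had little relation to gene length or base composition: over these 80 genes Pearson's r was 0.06 with coding length and 0.10 with the GC content of the transcript, as a description across genes. The members lie on 19 chromosomes, with 14 on chromosome 7, the most of any, and 4 on X. Of those 4, Rpl10, which joins the large subunit late in its assembly, had 1555 CPM in Ter119 and 961 CPM in saline (ratio 1.62), while Rps4x was level.

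The paralogs with restricted expression stayed low. Rpl3l, known from striated muscle, had 29 UMIs in Ter119 and 35 in saline in Kupffer-gated cells (1.16 CPM in Ter119, 0.488 CPM in saline). In patrolling monocytes, by contrast, it had 13 UMIs in Ter119 and 12 in saline (72.8 CPM in Ter119, 46.3 CPM in saline), and in neutrophils 6 UMIs in Ter119 and 16 in saline (26.1 CPM in Ter119, 28.3 CPM in saline). Dendritic, B and T and NK cells held no UMI of it in either mouse. Rpl39l, known from male germ cells, had 1.52 CPM in Ter119 and 4.55 CPM in saline Kupffer-gated cells (ratio 0.333, 0.232 to 0.467), and Rpl10l had 0 UMIs in both. A count of 0 allows up to 0.120 CPM in Ter119 and 0.0418 CPM in saline, the level of 3 counts. Rpl7l1, a factor of large subunit assembly, had 49.9 CPM in Ter119 and 60.0 CPM in saline (ratio 0.831), whereas Rpl36a, Rpl36al and Rpl39 had ratios of 1.35, 1.31 and 1.34. Rpl36a and Rpl36al share 87.7% of their coding bases, and Rpl39 and Rpl39l share 85.0%. The 3′ ends, where UMIs come from, were not compared, so how well reads of each pair separate was not tested. Rpl36al also overlaps another annotated gene on its strand, Gm49383, so its counts are uncertain.

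Rps27rt, a single-exon copy of Rps27, had 18.3 CPM in Ter119 and 33.2 CPM in saline (ratio 0.550, 0.497 to 0.608). Its coding sequence of 252 bases is identical to that of Rps27, and 341 of the 345 bases of the Rps27 transcript occur in it as 1 unbroken stretch, so the counts of both genes rest on how the few reads that differ were assigned. Rps27l, a p53-induced paralog, went the other way, with 399 CPM in Ter119 and 274.7 CPM in saline (ratio 1.45). Its coding sequence matched that of Rps27 in 189 of 315 aligned columns (60.0%). That figure counts gaps, since the Rps27 coding sequence has 252 bases. Whether reads of Rps27 and Rps27l can be told apart was not tested. Rps19bp1 had 29.7 CPM in Ter119 and 18.6 CPM in saline (ratio 1.59).

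By CPM, Rps2 was higher in Ter119 in each gate and Rps27 was lower or level (the plot of ratios by gate). Rps2 had 1755 CPM in Ter119 and 688 CPM in saline endothelial cells (ratio 2.55, 2.41 to 2.70). In classical monocytes it had 2761 CPM in Ter119 and 1824 CPM in saline (1.51), and in patrolling monocytes 1864 CPM in Ter119 and 1174 CPM in saline (1.59). In neutrophils it had 2012 CPM in Ter119 and 406 CPM in saline (4.95). The ratio was 1.41 in dendritic, 1.37 in B and 1.68 in T and NK cells, and each of these intervals lay above 1. Rps2 was also above the RP total, with a higher share of RP UMIs in Ter119 in all 8 gates. Rpl22l1 ratios ranged from 1.37 in classical monocytes to 4.43 in neutrophils.

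Rps27 had 2111 CPM in Ter119 and 2581 CPM in saline classical monocytes (0.818), 2436 CPM in Ter119 and 3618 CPM in saline patrolling monocytes (0.673) and 3309 CPM in Ter119 and 5184 CPM in saline B cells (0.638). In T and NK cells it had 2689 CPM in Ter119 and 3662 CPM in saline (0.734, 0.649 to 0.831). In endothelial cells it was level, with 1327 CPM in Ter119 and 1338 CPM in saline (0.991, 0.942 to 1.04). All 8 gates come from the same 2 libraries, so they are not independent replicates of the treatment.

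**Figure D4:**
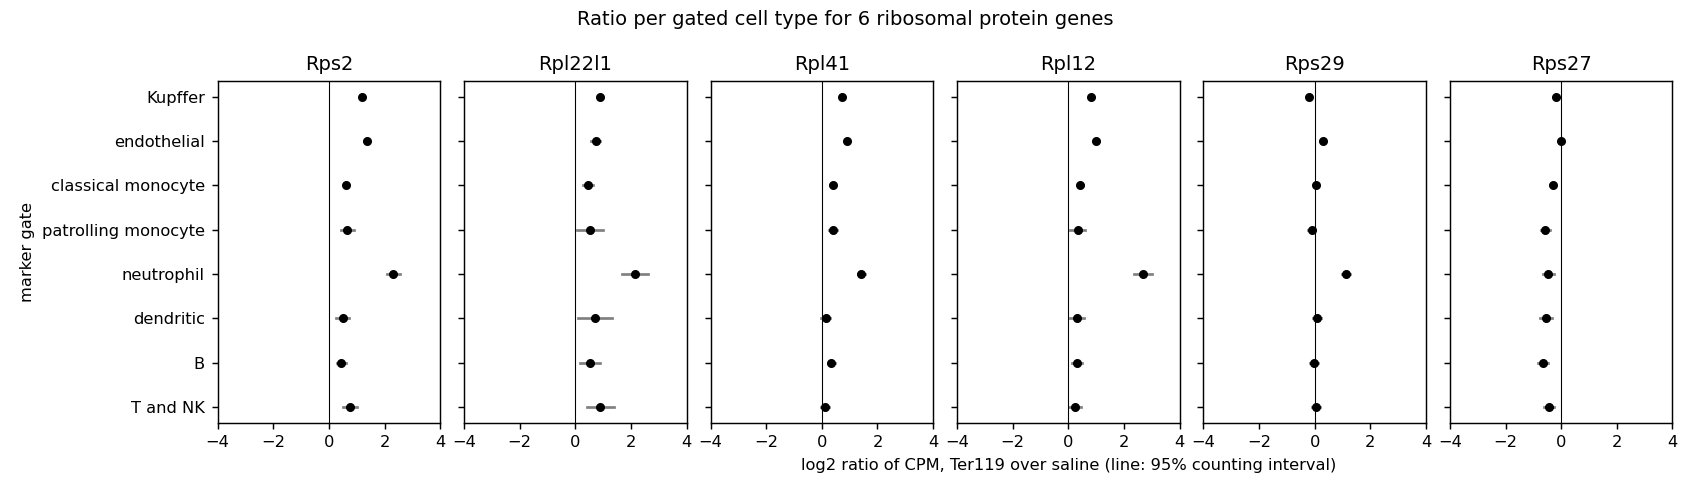
Log2 ratio of CPM, Ter119 over saline (horizontal axis), in 8 marker gates (vertical axis) for 6 RP genes, with 95% counting intervals as lines. Rps2 and Rpl22l1 lie right of 0 in each gate and Rps27 at or left of 0.

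The members' shift was not the same in each gate, and these differences between gates were not tested. In endothelial cells the median log2 ratio of the members was 0.52 (all genes -0.11). There, 29 members were at least 1.5-fold higher, against 8.12% of all genes, and 1 was lower, against 14% of all genes. In neutrophils the median was 1.42 (all genes 0.16), and 77 of 84 members were at least 1.5-fold higher, against 37.5% of all genes, and 1 was lower, against 27.2%. At least 2-fold higher in neutrophils were 69 members, against 26.4% of all genes. The other gates held shares of called members below the background. In small gates a gene at the 20 CPM minimum rests on very few UMIs. Ter119 dendritic cells held 70606 non-hemoglobin UMIs in all and Ter119 B cells 103352. Most members lie far above that minimum, so there the shares do not compare members with genes of like counts. The part of counting error in the background was not tested. In classical monocytes the median was 0.15 (all genes -0.06), with 1 member at least 1.5-fold higher, against 7.7% of all genes, and 0 lower, against 11.7%. In patrolling monocytes it was 0.10 (all genes -0.05), with 4 members higher, against 19.3%, and 1 lower, against 24.9%. Lymphocyte and dendritic gates, which have few cells, were similar in this respect. In dendritic cells the median was 0.02 (all genes 0.14), with 2 members higher, against 29.3%, and 1 lower, against 23.4%. In B cells it was 0.08 (all genes -0.05), with 2 members higher, against 21.1%, and 3 lower, against 26.5%. In T and NK cells it was 0.23 (all genes -0.23), with 8 members higher, against 19.6%, and 3 lower, against 36.2%.

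In level, members differed between cell types about as often as all genes did. The 1871 genes compared had at least 100 CPM in 1 library of the Kupffer gate. Over 7 gated types, without the dendritic gate, 62 of 80 members spanned at least 2-fold by CPM in both mice, against 72.7% of all genes. That filter uses 1 of the gates compared, so the share of all genes depends on it. Per RP UMI, 2 of the 80 members (Rps27l and Rplp1) did so, beside 89.7% of all genes. Dividing by RP UMIs centres the members on their own sum, so these last values do not compare members with other genes. Rplp1 held 3.29% of RP UMIs in Ter119 and 2.84% in saline Kupffer-gated cells, but 1.62% in Ter119 and 1.32% in saline patrolling monocytes. Rps27l held 0.322% in Ter119 and 0.284% in saline Kupffer-gated cells, and 0.115% in Ter119 and 0.0913% in saline B cells, where it was lowest in both mice. Rps6, the substrate of S6 kinases, was highest in endothelial cells, at 0.986% in Ter119 and 0.995% in saline, and 0.570% in Ter119 and 0.671% in saline in Kupffer-gated cells. Among the 7 types Rps27 was lowest in Kupffer-gated cells in both mice, at 0.763% in Ter119 and 1.103% in saline. Rps15a was highest in T and NK cells, at 2.42% in Ter119 and 1.92% in saline. Rpl12 reached 1.32% in Ter119 B cells and 1.15% in saline T and NK cells, and Rpl27 up to 0.415% in Ter119 T and NK cells and 0.480% in saline neutrophils.

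**Figure D5:**
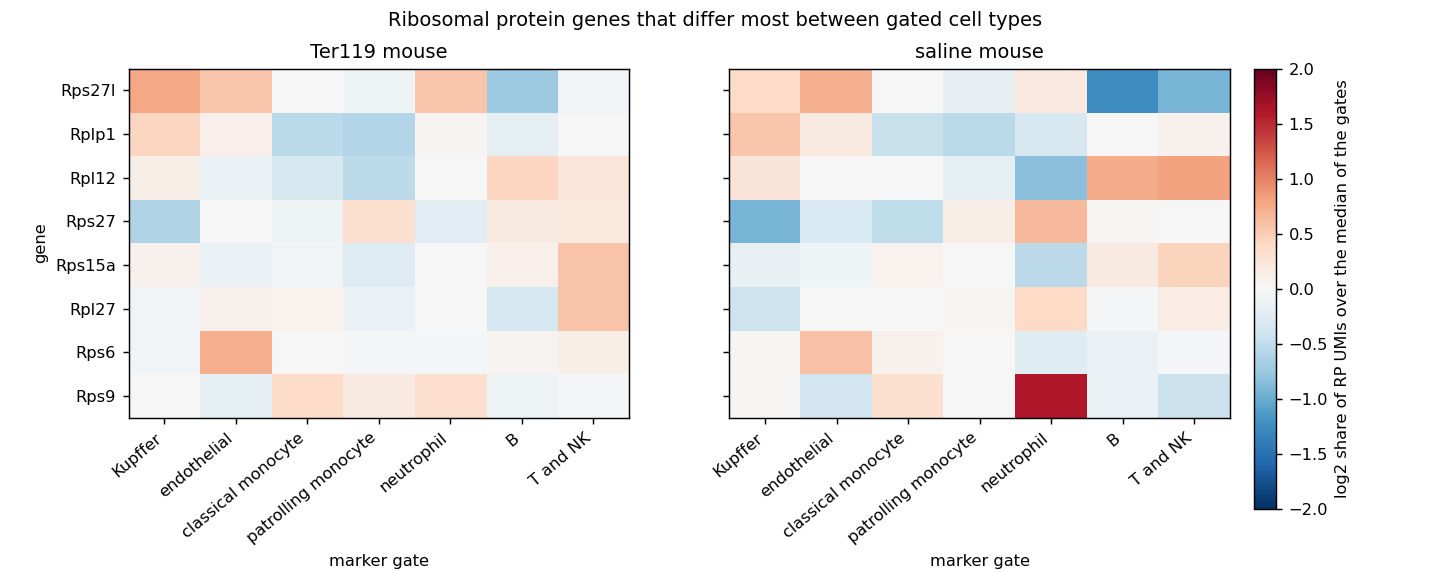
Log2 of each gene's share of RP UMIs over its median across 7 gates (colour, red higher, blue lower) in the Ter119 mouse (left) and the saline mouse (right), for 7 of the abundant members that differ most between gates and for Rps9. Rplp1 is high in Kupffer and low in patrolling monocyte cells in both mice, whereas Rps9 stands out in saline neutrophils, at 5.79% of RP UMIs.

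Saline neutrophils, which had the lowest RP share, also had an uneven set of members. Rps9 made up 5.79% of their RP UMIs and between 1.42% and 2.40% in the other saline gates, while Ter119 neutrophils had 2.26%. Its CPM was nearly level, 2889 CPM in Ter119 and 3072 CPM in saline (ratio 0.9405, 0.859 to 1.03), when the RP sum was 2.41 times higher in Ter119. Rps27a, which is made as a fusion with ubiquitin, held 2.38% in Ter119 and 3.98% in saline neutrophils. Rps27 held 0.991% in Ter119 and 3.27% in saline, and Rpl37 held 1.72% in Ter119 and 3.40% in saline. Rpl12 was the opposite case, with 1251 CPM in Ter119 and 196 CPM in saline neutrophils (ratio 6.38, 5.11 to 8.02). Immature neutrophils of the Ter119 mouse had 2.54% from Rps9 and 0.890% from Rps27. Rps9, Rpl37 and Rps27a were singled out after their values were seen. In the 16 erythroid cells of the Ter119 mouse, Rps2 held 2.71% of RP UMIs and Rplp0 2.06%.

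Ribosomal proteins whose names the rule misses were read beside the members. Fau, which is made as a fusion with a ubiquitin-like protein, had 2291 CPM in Ter119 and 1532 CPM in saline Kupffer-gated cells (ratio 1.495). Rack1, a signalling scaffold on the small subunit, had 1233 CPM in Ter119 and 1079 CPM in saline (ratio 1.14). In neutrophils, where the RP sum was higher in Ter119, Fau had 3619 CPM in Ter119 and 4130 CPM in saline (ratio 0.876, 0.809 to 0.949). Rack1 had 1043 CPM in Ter119 and 332 CPM in saline neutrophils (ratio 3.14, 2.58 to 3.82).

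Among the other lists of the translation pathway, mitochondrial ribosomal proteins had a median near that of the members (0.35), and the rest lay lower. Of all genes, 8.78% were higher and 20.4% lower by 1.5-fold or more, which is the background for each count of these lists. Elongation factors and other TOP messages had a median log2 ratio of 0.16, with 0 of 16 at least 1.5-fold higher and 1, Pabpc1, at least 1.5-fold lower. Eif3k (0.47), Eef1b2 (0.38) and Tpt1 (0.35) were at the top, and Pabpc1 (-0.64), which binds poly(A) tails, Eif4b (-0.43) and Eif2s3x (-0.41) at the bottom. Eef1a1, the main elongation factor, had 3558 CPM in Ter119 and 3735 CPM in saline (ratio 0.953). Ribosome biogenesis genes had a median of 0.01 over the 18 of 25 that reached 20 CPM, and of -0.0090 with mitochondrial UMIs out of the base. Wdr12 (0.63), Npm1 (0.58) and Nhp2 (0.43) were highest, and Myc (-1.16), Polr1a (-0.51), the large subunit of RNA polymerase I, and Ubtf (-0.49) lowest. Of the 18, Wdr12 alone was 1.5-fold higher and Myc alone 1.5-fold lower.

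Genes of mTOR and translation control had a median of -0.19 over 18 of 21, which turned to 0.0116 with TMM factors, with 1 at least 1.5-fold higher and 3 lower, beside 8.78% and 20.4% of all genes. Ddit4, an inhibitor of mTOR, had 135 CPM in Ter119 and 8.25 CPM in saline, a ratio of 16.3 (14.97 to 17.9). Sesn1 (-1.01), also an inhibitor upstream of mTOR, Eif2ak3 (-0.84), a kinase that slows initiation, and Larp1 (-0.63), which binds TOP messages, were the lower ones, and Rheb (0.35) and Eif4ebp1 (0.24) stood next to Ddit4. Mitochondrial ribosomal proteins, which serve the separate ribosome of that organelle, had a median of 0.32 over 68 of 78, with 9 at least 1.5-fold higher and 1 lower, beside 8.78% and 20.4% of all genes. Mrpl1 (1.05), Mrps36 (0.97) and Mrpl41 (0.77) were highest and Mrpl3 (-0.999), Mrps6 (-0.55) and Mrpl10 (-0.34) lowest. Messages encoded by the mitochondrial genome had a median of -0.44 over 15 of 37, from mt-Co2 (-0.14), mt-Nd1 (-0.20) and mt-Cytb (-0.26) down to mt-Atp8 (-0.72), mt-Nd6 (-0.79) and the ribosomal RNA mt-Rnr1 (-0.98). Within a library, cells with a higher RP share had a higher share of elongation and other TOP messages, with Pearson's r of 0.50 in Ter119 and 0.68 in saline over Kupffer-gated cells, as a description.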

How the data were processed

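For each mouse, the authors deposited a matrix of genes by barcodes with unnormalized UMI counts, and the file headers name Cell Ranger 6.0.2. Per the submitters' processing notes, the build was GRCm38.p6 and the tools included Seurat 3.2.3, Scanpy 1.7.0, Cell Ranger 4.0.0 and DESeq2 1.26.0. The assignment of cells to mice by hashtag is not described in the labels, and 133 barcode sequences occur in both libraries.

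Cells were kept with at least 1000 UMIs, 500 genes and at most 15% mitochondrial UMIs. Gates used fixed markers and no RP gene; their thresholds were set after seeing the marker shares (Kupffer: 20 per 1000 non-hemoglobin UMIs and 3 markers). Cells that passed more than 1 gate, 273 in Ter119 and 201 in saline, were left out, and no doublet caller was run. Counts were summed per gate and divided by non-hemoglobin UMIs (CPM). UMIs come from 3′ ends, so levels of different genes were not divided by length. Shares have exact Clopper-Pearson and ratios exact conditional binomial 95% intervals, which were tested on simulated counts and cover counting error only. With 1 mouse per group no test was made. Genes needed 20 CPM in 1 library; folds of 1.5 and 2 are descriptions.

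The members, lists and gates were chosen with earlier results of these data known. Named genes were paralogs, the 5 most abundant members, the 8 highest and 8 lowest ratios at 100 CPM or more, the 8 that differ most between types (limited to 100 CPM after seeing the data), and the 3 highest and 3 lowest of each other list; some genes that the rule names are not reported here. Of the snoRNA host genes listed, none was analysed here; hemoglobin genes (median log2 ratio 9.26 over 4) served only to set the base. Pseudogene rows of RP genes held 0.0439% of RP UMIs in Ter119 and 0.0684% in saline. Positions, transcripts and overlaps came from GENCODE vM21 (GRCm38) and start sequences from RefSeq. TMM factors came from edgeR 4.0.16 in R 4.3.3, and intervals from scipy 1.17.1 under python 3.11.15.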

Additional observations from a re-analysis of the deposited data

Results flagged for a closer look

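In 5 cases a named member was lower in Ter119 in 1 gate and higher in another, each with a counting interval on 1 side of 1; the difference between gates was not tested. Rps29 had a ratio of 0.873 in Kupffer-gated cells but 1.23 in endothelial cells (3144 CPM in Ter119, 2553 CPM in saline) and 2.19 in neutrophils (3806 CPM in Ter119, 1740 CPM in saline). The RP share had ratios of 1.28, 1.46 and 2.41 in these gates, each above that of Rps29. Under other scalings the Kupffer log2 ratio of Rps29 reached 0.03, so its direction there depends on the scaling. Rpl27, a large subunit protein, had a ratio of 1.263 in Kupffer-gated cells (333 CPM in Ter119, 264 CPM in saline). It was 0.904 in classical monocytes (576 CPM in Ter119, 636 CPM in saline), 0.730 in patrolling monocytes (431 CPM in Ter119, 591 CPM in saline) and 0.647 in B cells (552 CPM in Ter119, 853 CPM in saline). The B and patrolling values rest on 57 and 77 UMIs in Ter119 and on 370 and 153 in saline. The RP share had ratios of 1.283 in Kupffer-gated cells, 1.13 in classical monocytes, 1.06 in patrolling monocytes and 1.04 in B cells, each above that of Rpl27.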

How the results depend on the processing

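With 1 mouse per group, no replicate spread, batch or left-out library could be checked. No paired analysis was possible because each group holds 1 mouse. The Ter119 library is shallower, and gates under 60 cells (dendritic, B in Ter119, patrolling in saline, T and NK in saline) limit single genes to wide intervals; the stricter gate left too few dendritic cells for a value.

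The ratio of the RP share in Kupffer-gated cells (1.283) was above 1 in all 13 alternatives. It was 1.285 with at least 2000 UMIs, 1.23 with at most 5% and 1.30 with at most 30% mitochondrial UMIs, 1.19 with the stricter gate, 1.281 with gating on cells thinned to 1000 UMIs, 1.257 without cells over 1% hemoglobin, 1.18 with all UMIs as the base, 1.263 without mitochondrial UMIs in the base, 1.33 as the median of cells and 1.281 without Rps19bp1 and paralogs. In endothelial cells (1.46) the alternatives ran from 1.34 with at most 5% mitochondrial UMIs to 1.74 with at least 2000 UMIs. In neutrophils (2.41) they ran from 1.82 with at least 500 UMIs and 250 genes to 2.87 with at least 2000 UMIs. That last value rests on 34 Ter119 cells. In small gates the direction turned: dendritic 0.999 with at least 500 UMIs and 250 genes, 0.963 with all UMIs and 0.9895 as the median of cells, B 0.993 without cells over 1% hemoglobin and 0.939 with all UMIs, and patrolling monocytes 0.986 with all UMIs.

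The members' median log2 ratio (0.350) was 0.555 with TMM and 0.575 with median-of-ratios factors, 0.327 without mitochondrial UMIs, 0.350 with no minimum except 1 UMI in each library, 0.355 at 100 CPM, 0.357 with at least 2000 UMIs, 0.287 with at most 5% and 0.371 with at most 30% mitochondrial UMIs (this last setting was added after seeing the data), 0.253 with the stricter gate and 0.332 without cells over 1% hemoglobin; as a share of RP UMIs it was -0.0097, as that base sets it near 0. Members at least 1.5-fold higher (16) were 38 with TMM (14.7% of all genes) and 40 with median-of-ratios factors (15.4%), 1 as a share of RP UMIs (4.33%), 8 with at most 5% mitochondrial UMIs (8.43%) and 10 with the stricter gate (8.28%). Members 1.5-fold lower (1) were 2 as a share of RP UMIs (45.8% of all genes), 2 with no minimum (28.9%) and 0 at 100 CPM (21.2%). Members 2-fold higher (1) were 5 with TMM (5.66% of all genes), 5 with median-of-ratios factors (5.78%), 0 as a share of RP UMIs (2.38%) and 2 with no minimum (8.50%). Members that span 2-fold over types (2, beside 89.7% of all genes) were 62 by CPM (72.7%), and 3 with the stricter gate or at least 2000 UMIs.

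The medians of the other lists, under scalings added after seeing the data, were with TMM factors 0.398 for the 3 subunits outside the name rule, 0.366 for elongation and TOP messages, 0.218 for biogenesis, 0.0116 for mTOR genes, 0.520 for mitochondrial ribosomal proteins and -0.236 for mitochondrial messages. With median-of-ratios factors they were 0.418, 0.386, 0.238, 0.0315, 0.540 and -0.216 in that order, and without mitochondrial UMIs 0.171, 0.139, -0.0090, -0.216, 0.293 and -0.463. The mTOR and biogenesis medians thus have no fixed sign. The causes of these shifts were not tested. The C and T run stood in 59.0% of member windows when allowed near the start, against 17.9% at the start base.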
